A study of Mus musculus with 6 samples.

Results

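The cytosolic ribosome translates messenger RNA, and its proteins are shared between a large 60S subunit, which joins amino acids and releases the new chain through the exit tunnel, and a small 40S subunit, which reads the messenger. The genes of these proteins are transcribed at a high rate in growing cells. Most of their mRNAs begin with a tract of C and T, the 5′ terminal oligopyrimidine (TOP) motif, through which mTORC1 and LARP1 control their translation. In β-cells the ribosome is occupied to a large extent with insulin, the main secreted product. Genes were taken as cytosolic ribosomal protein genes where the symbol began with Rpl or Rps followed by a digit, or was *Rplp0*, *Rplp1*, *Rplp2* or *Rpsa*, leaving out the S6 kinases (Rps6k) and *Rps19bp1*. The rule found 86 of 16640 genes. Of these, 46 encode standard proteins of the 60S subunit, 31 encode standard proteins of the 40S subunit, 6 are paralogs that stand in for a standard protein (*Rpl3l*, *Rpl7l1*, *Rpl22l1*, *Rpl36al*, *Rpl39l* and *Rps27l*), and 3 are further copies (*Rpl31-ps12*, *Rpl34-ps1* and *Rpl37rt*).

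The RNA came from MIN6, a mouse β-cell line grown from an insulinoma that arose in a transgenic mouse carrying the SV40 large T antigen. In the *Thada*-activated line, cells carried a lentiviral dCas9-VP64 selected with puromycin and a second lentivirus with sgRNA-MS2-P65-HSF1 selected with G418, which recruit activators to the promoter of *Thada*. The control line was infected with dCas9 and a non-targeting sgRNA. Each condition was 1 stable line, sequenced as 3 libraries numbered 1 to 3, and the comparison asks what higher *Thada* expression changes in these cells. The labels do not say that libraries came from separate cultures. The study describes its cell experiments in general as repeated independently, without saying how this applies to these libraries, and with 1 line a condition the p-values measure the spread between libraries of these lines. Activated replicates 1 and 2 differed by little more than counting error (chi-square over degrees of freedom 1.81, over 13005 genes), against 4.30 for control replicates 1 and 2 and at least 89.8 for each pair that held a replicate 3. Estimated read counts totalled 17272834, 17166511 and 17689611 in control and 17727004, 17385036 and 17224631 in *Thada*-activated replicates 1, 2 and 3.

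*Thada* measured 27.7, 29.0 and 16.96 CPM in control libraries 1 to 3, against 57.4, 56.2 and 50.2 CPM in activated libraries 1 to 3, where CPM is the count scaled to equal library totals, so that each library sums to the same value. The groups did not overlap, and control replicate 3 was the lowest library. The log2 fold change was 1.13 ± 0.22 (SE, unadjusted p = 0.00196, adjusted p = 1.00) without a block and 1.15 ± 0.10 (SE, unadjusted p = 6.54e-08, adjusted p = 4.10e-04) with the replicate number as a block, by edgeR's quasi-likelihood test with Benjamini-Hochberg adjustment over 12516 genes. Of 12 β-cell markers in the table, 11 were over 1 CPM in every library, *Mafa* and *Pdx1* among them. The exception was *Slc2a2*, the glucose transporter of rodent β-cells, under 1 CPM in every library. *Ins2*, the most abundant of the 12, took 6.37%, 5.65% and 10.2% of counts in control replicates 1, 2 and 3 and 6.44%, 6.29% and 8.36% in the activated ones. Both acinar markers in the table, *Cela2a* the more abundant, were at or under 3 counts in every library, as were 2 of 3 endothelial and 1 of 2 immune markers found. Some markers of other cells were present. *Sst* measured 154, 129 and 67.9 CPM in control libraries 1 to 3, against 143, 131 and 59.2 CPM in activated libraries 1 to 3. *Krt7* measured 148, 151 and 71.6 CPM in control libraries 1 to 3, against 182, 184 and 98.2 CPM in activated libraries 1 to 3. *Sst*, of δ-cells, and *Krt7*, of duct cells, were lowest in both replicates 3. Within each replicate number *Krt7* was higher in the activated library, with a blocked log2 fold change of 0.32 ± 0.061 (SE, unadjusted p = 2.13e-04, adjusted p = 0.0651). *Krt19* measured 0.521, 0.524 and 0.339 CPM in control libraries 1 to 3, against 2.37, 1.496 and 1.05 CPM in activated libraries 1 to 3. *Krt19*, also of duct cells, was higher in all 3 activated libraries, with a blocked value of 1.78 ± 0.32 (SE, unadjusted p = 1.31e-04, adjusted p = 0.0548). Among the other markers, *Gcg* of α-cells and *Cd68* of immune cells were also lowest in both replicates 3. Their log2 differences of replicate 3 from 1 and 2 were -0.34 ± 0.13 (SE, adjusted p = 0.0286) and -0.97 ± 0.38 (SE, adjusted p = 0.0395). Others were highest in both replicates 3. *Irx2*, also of α-cells, was among them, with a log2 difference of 0.49 ± 0.20 (SE, adjusted p = 0.0422). *Ppy* measured 19.5, 17.8 and 27.5 CPM in control libraries 1 to 3, against 22.6, 21.6 and 39.8 CPM in activated libraries 1 to 3. *Col1a1* measured 1.39, 1.28 and 3.17 CPM in control libraries 1 to 3, against 1.02, 1.78 and 3.54 CPM in activated libraries 1 to 3. *Ppy* marks PP cells and *Col1a1* fibroblasts. Within each replicate number *Ppy* was higher in the activated library, with a blocked log2 fold change of 0.33 ± 0.088 (SE, unadjusted p = 0.00301, adjusted p = 0.213). *Pecam1* measured 0.347, 0.350 and 1.24 CPM in control libraries 1 to 3, against 0.338, 0.460 and 1.10 CPM in activated libraries 1 to 3. *Pecam1*, the most abundant of the endothelial markers, was thus highest in both replicates 3 as well. *Col1a2* measured 1.22, 1.46 and 0.791 CPM in control libraries 1 to 3, against 1.92, 1.67 and 1.97 CPM in activated libraries 1 to 3. *Col1a2*, another fibroblast marker, was lowest in control replicate 3 and highest in activated replicate 3, with a log2 difference of replicate 3 from 1 and 2 of -0.22 ± 0.30 (SE, adjusted p = 0.532). Its conditions did not overlap, with a blocked log2 fold change of 0.67 ± 0.28 (SE, unadjusted p = 0.0333, adjusted p = 0.431). The part of other cell types in the results was not tested.

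Levels are compared between genes in FPKM, the deposited value per kilobase of gene model and library size. The median over the 77 standard members was 465, 435 and 808 FPKM in control replicates 1, 2 and 3 and 493, 497 and 807 FPKM in the activated ones. Replicate 3 was the highest library of both conditions. In control replicate 1, 63 of 77 lay between 0.5 and 2 times that library's median, and 58 of 77 did in control replicate 3. The 5 highest mean levels belonged to *Rpl10*, which lies next to the tRNA binding sites of the 60S subunit, the very short *Rpl41*, *Rpl23a* at the tunnel opening, *Rps15* and *Rpl38*. *Rpl10* measured 2574, 2319 and 2837 FPKM in control libraries 1 to 3, against 2743, 2750.2 and 2606 FPKM in activated libraries 1 to 3. *Rpl41* measured 2352, 1747 and 2675 FPKM in control libraries 1 to 3, against 2467, 2392 and 2706 FPKM in activated libraries 1 to 3. *Rpl23a* measured 1089, 1037 and 2231 FPKM in control libraries 1 to 3, against 1234, 1178 and 2283 FPKM in activated libraries 1 to 3. For *Rpl10* the replicates 3 lay close to the other libraries, whereas for *Rpl23a* both lay above all others.

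*Rps15* measured 1091, 873 and 1949 FPKM in control libraries 1 to 3, against 1138, 1130.2 and 1742 FPKM in activated libraries 1 to 3. *Rpl38* measured 1199, 744 and 1642 FPKM in control libraries 1 to 3, against 1207, 1129.6 and 1628 FPKM in activated libraries 1 to 3. The lowest of the tested members were *Rpl34-ps1*, *Rpl31-ps12* and *Rps6*. *Rpl34-ps1* measured 8.95, 14.1 and 25.4 FPKM in control libraries 1 to 3, against 14.0, 15.9 and 20.4 FPKM in activated libraries 1 to 3. *Rpl31-ps12* measured 13.2, 11.3 and 40.5 FPKM in control libraries 1 to 3, against 18.2, 17.6 and 32.4 FPKM in activated libraries 1 to 3. Both are copies, and the third gene is a standard member. *Rps6* measured 22.4, 25.3 and 25.3 FPKM in control libraries 1 to 3, against 23.5, 21.7 and 25.6 FPKM in activated libraries 1 to 3. *Rps6* encodes the main substrate of the S6 kinases in the 40S subunit, and its counts were fractional in every library. A fraction means that the counting program divided reads between features, and this held for 20 of the 86 members and 17 of the 77 standard ones in at least 1 library. Ribosomal protein genes have many near-identical processed copies in the genome, so the level of those 20 is uncertain. The order of the levels was similar in control replicates 1 and 3 across the 77 standard genes (Spearman's rho 0.94, a description, since genes of 1 library share its depth). The summed FPKM of 60S genes was 1.72, 1.73 and 1.66 times that of 40S genes in control replicates 1, 2 and 3 and 1.74, 1.75 and 1.69 times in the activated ones.

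The 86 genes together took 2.38%, 2.19% and 4.11% of all counts in control replicates 1, 2 and 3 and 2.51%, 2.45% and 4.13% in the activated ones. The 95% Wilson intervals of these shares were at most 0.0188 percentage points wide, and cover counting error only. Both replicates 3 stood above the 4 other libraries, and the conditions overlapped. The means were 2.89% ± 1.06 (SD, n = 3) in control and 3.03% ± 0.950 (SD, n = 3) in *Thada*-activated cells, a difference of 0.137 percentage points (two-sided exact permutation p = 0.5; the smallest p with 3 against 3 is 0.1). The sign of this difference turned in 3 of 6 omissions of a single library, to -0.120, -0.215 and -0.411 percentage points without control replicate 1, control replicate 2 and activated replicate 3, and it was 0.746 without control replicate 3. Within replicate numbers the differences were 0.130, 0.265 and 0.0144 percentage points, higher in 3 of 3 pairs (two-sided exact sign-flip p = 0.25, the smallest that 3 pairs allow). Here and below, pairs follow the replicate number only. The labels do not say that libraries of the same number belong together, and the counts do not tell numbers 1 and 2 apart. In pair 3 the difference was -0.0739 percentage points with insulin left out of the total and -0.0579 without the 20 most abundant genes, so 2 of 3 pairs were then higher. As a share of summed FPKM the differences were 0.320, 0.587 and 0.523 percentage points, higher in 3 of 3 pairs, with a mean of 0.477 (two-sided exact permutation p = 0.5). Replicate 3 held 1.80 times the mean share of counts of replicates 1 and 2 in control and 1.66 times in *Thada*-activated cells. In these bulk samples, a larger share of cells with high levels and more of this RNA per cell cannot be told apart, and a share also moves with the other RNAs of the library.

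**Figure D1:**
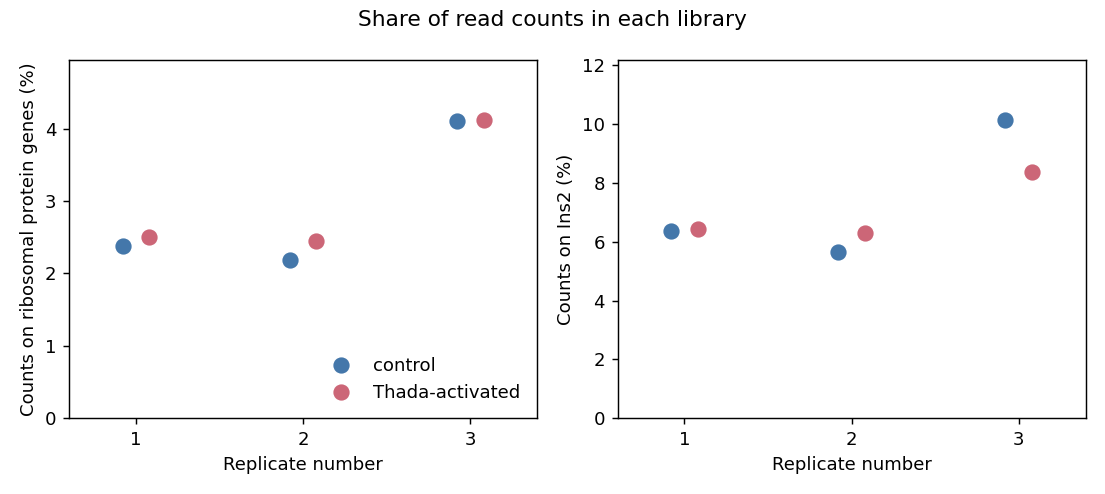
Percent of read counts on the 86 cytosolic ribosomal protein genes (left) and on *Ins2* (right) for replicate numbers 1 to 3, with 1 point per library, control in blue and *Thada*-activated in red. Both replicates 3 lie above the other libraries, at 4.11% and 4.13% for ribosomal protein genes.

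Between conditions, no ribosomal protein gene passed the test. Of the 86, 84 passed the filter on low counts (*Rpl3l* and *Rpl39l* did not). A gene was called when its fold change was over 1.5 and its Benjamini-Hochberg adjusted p from edgeR was under 0.05. By this rule 0 of 84 members were called, as were 0% of the 12516 genes tested, so that *Thada* itself did not pass in this fit. At an unadjusted p under 0.05, 0 of 84 members passed, against 0.807% of all tested genes. The DESeq2 test called 5 genes, 0 of them ribosomal protein genes, and limma on FPKM called 0 genes. The log2 fold change was above 0 for 59 members and below 0 for 25, with a median of 0.051 against -0.0040 over all tested genes. With the replicate number as a block, 0 of 84 were again called, against 0.152% of all tested genes (19), and the median was 0.070. In that blocked fit 14 members had an unadjusted p under 0.05 with a value above 0 (16.7%, against 6.06% of tested genes), and 0 had one with a value below 0 (against 4.34%). With the block and a length correction, 3 members with a value above 0 had an unadjusted p under 0.05 by edgeR, against 5.7% of tested genes. With a value below 0 there were 4, against 4.41%. The median was then -0.015, with 37 members above 0 and 47 below. The length trend was fitted with the members included, so the correction can take out part of their own difference.

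The members' median between conditions moved with each library left out, and its sign changed in 3 of 6 omissions. It was 0.43 without control replicate 3 and -0.24 without *Thada*-activated replicate 3, -0.085 without control replicate 1, -0.12 without control replicate 2, 0.18 without *Thada*-activated replicate 1 and 0.19 without *Thada*-activated replicate 2. By pairs, the members' median difference was 0.066, 0.19 and -0.039 for replicate numbers 1, 2 and 3, with 71, 69 and 34 of 84 above 0. In replicates 1 and 2 alone, chosen after seeing the data, 10 members had an adjusted p under 0.05 by edgeR at any fold, all with values above 0, against 3.41% of the genes tested there in either direction. Of them 0 passed the 1.5-fold threshold, and 32 members had an unadjusted p under 0.05, against 15.8%. With the block and pair 1 left out, also chosen after seeing the data, 4 members passed at any fold, against 0.521% of tested genes, and 1 of them, against 0.339%, the copy *Rpl37rt*, passed the 1.5-fold threshold with a log2 fold change of 0.66 ± 0.12 (SE, adjusted p = 0.0059 by edgeR). With pair 2 left out 0 members passed at any fold by edgeR, against 0.174% of tested genes, 3 had an unadjusted p under 0.05 with a value above 0, against 4.21%, and 1 with a value below 0, against 2.66%, and the median was 0.014. With pair 3 left out 12 passed at any fold, against 2.93%, and 0 passed the fold threshold, with 33 above 0 at an unadjusted p under 0.05, against 7.91%.

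In the fit without a block, the standard members with the highest fold changes between conditions were *Rpl36*, *Rps29*, *Rps28*, *Rpl38* and *Rpl39*. *Rpl36* measured 59.3, 49.6 and 87.2 CPM in control libraries 1 to 3, against 67.5, 65.3 and 132 CPM in activated libraries 1 to 3. The conditions overlapped, and within each replicate number the *Thada*-activated library was higher. The log2 fold change was 0.40 ± 0.35 (SE, unadjusted p = 0.288, adjusted p = 1.00) and, with the block, 0.38 ± 0.077 (SE, unadjusted p = 3.75e-04, adjusted p = 0.0837), the lowest blocked p among the members. *Rps29* measured 91.4, 53.5 and 120.1 CPM in control libraries 1 to 3, against 85.5, 86.3 and 172 CPM in activated libraries 1 to 3. The control replicate 2 was the lowest library and the activated replicate 3 the highest. The blocked log2 fold change was 0.34 ± 0.14 (SE, unadjusted p = 0.0486, adjusted p = 0.476). *Rps28* measured 78.4, 57.2 and 104 CPM in control libraries 1 to 3, against 84.2, 87.4 and 125 CPM in activated libraries 1 to 3, with a blocked value of 0.30 ± 0.089 (SE, unadjusted p = 0.00568, adjusted p = 0.275).

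*Rpl38* measured 170.0, 99.7 and 222 CPM in control libraries 1 to 3, against 173, 164 and 270.2 CPM in activated libraries 1 to 3, with a blocked log2 fold change of 0.31 ± 0.11 (SE, unadjusted p = 0.0184, adjusted p = 0.368). *Rpl39*, a tunnel protein, had 0.24 ± 0.064 (SE, unadjusted p = 0.00276, adjusted p = 0.205), below *Rps21* with 0.29 ± 0.091 (SE, unadjusted p = 0.00766, adjusted p = 0.291). At the other end were *Rpl23*, *Rpl12*, *Rpl17*, *Rps4x* and *Rps3a1*. *Rpl23* measured 334, 282 and 619 CPM in control libraries 1 to 3, against 309, 311 and 528 CPM in activated libraries 1 to 3, a log2 fold change of -0.13 ± 0.37 (SE, unadjusted p = 0.729, adjusted p = 1.00). The values of *Rpl12*, *Rpl17*, *Rps4x* and *Rps3a1* were -0.10, -0.064, -0.064 and -0.062, and did not pass the test. With the block *Rpl23*, *Rpl12*, *Rpl17*, *Rps4x* and *Rps3a1* were at -0.091, -0.091, -0.030, -0.057 and -0.028. Without the block, each of them changed sign when some single libraries were left out, as did *Rps29* and *Rpl39*. In CPM the libraries of the conditions did not overlap for 1 member, *Rps27l*, against 5.43% of tested genes. Its conditions overlapped in FPKM.

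Most of these genes differed between replicate numbers. In the test over all 3 numbers with condition in the fit, 70 of 84 members were called (83.3%), against 31.8% of all tested genes, and the median range over the numbers was 0.91 on the log2 scale, against 0.42. The labels do not say what a number stands for. Replicate 3 was set against 1 and 2 because it stood apart in these libraries, so those values are a description. In that contrast 67 of 84 members were called higher (79.8%, against 15.7% of tested genes) and 0 lower (against 15.3%). The members' median was 0.84, against 0.0024 over all tested genes. Both replicates 3 were above the 4 other libraries in CPM for 80 of 84 members, against 36.7% of tested genes.

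The difference was present within each condition. For the members the median of replicate 3 minus the mean of 1 and 2 was 0.92 in control, with 81 of 84 above 0, and 0.76 in *Thada*-activated cells, with 80 of 84 above 0. Across the 77 standard genes the values of the conditions, which share no library, had a Pearson correlation of 0.83, given as a description. Replicate 2 minus replicate 1 had medians of -0.15 in control and -0.041 in *Thada*-activated cells.

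**Figure D2:**
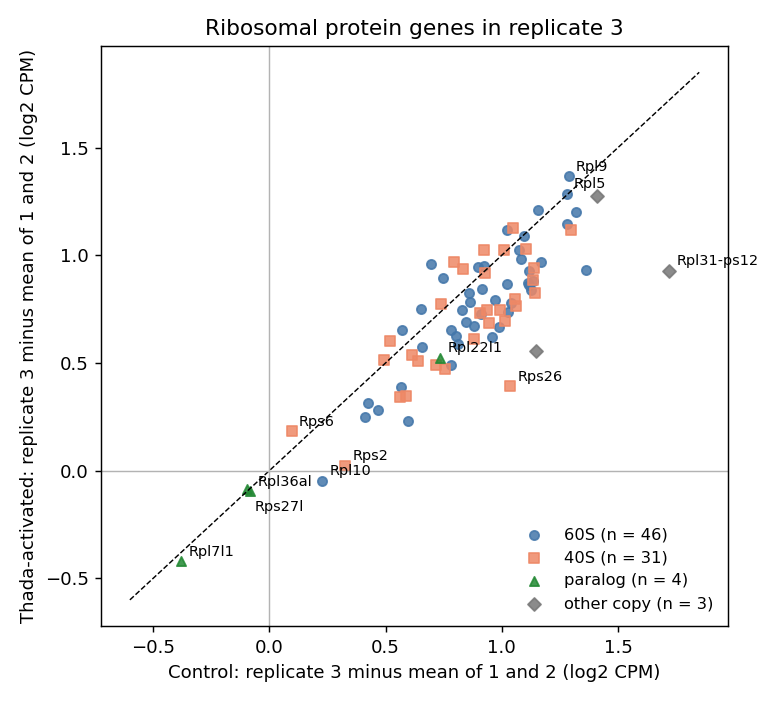
Replicate 3 minus the mean of replicates 1 and 2 in log2 CPM for each of the 84 tested genes, in control (horizontal axis) and *Thada*-activated cells (vertical axis), with colour and shape for the class of gene and a dashed line of equal values. Of the 77 standard genes, 76 lie above 0 on both axes and *Rpl10* is below 0 in activated cells, while *Rpl7l1*, *Rpl36al* and *Rps27l* lie below 0 on both axes.

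Of the 46 standard 60S genes, 40 were called higher in replicate 3, with a median of 0.86. The 10 members with the lowest p in this contrast were *Rpl5*, *Rpl9*, *Rpl22*, *Rpl24*, *Rpl35a*, *Rps14*, *Rps24*, *Rps23*, *Rpl36a* and *Rpl26*. *Rpl5* and *Rpl11* bind 5S rRNA and form with it the 5S RNP, which restrains MDM2 when it is free of the ribosome. *Rpl5* measured 431, 403 and 1002 CPM in control libraries 1 to 3, against 426, 399.6 and 1026 CPM in activated libraries 1 to 3. Both replicates 3 lay above the 4 other libraries, and the log2 difference was 1.28 ± 0.060 (SE, adjusted p = 1.31e-08). *Rpl11* measured 265, 214 and 518 CPM in control libraries 1 to 3, against 258, 260.0 and 487 CPM in activated libraries 1 to 3, a log2 difference of 1.01 ± 0.080 (SE, adjusted p = 5.38e-07). *Rpl9* measured 236, 239 and 575 CPM in control libraries 1 to 3, against 248, 219.9 and 615 CPM in activated libraries 1 to 3, and the log2 difference was 1.33 ± 0.064 (SE, adjusted p = 1.67e-08), the highest of the standard members.

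*Rpl22*, whose protein also binds other RNAs, showed a similar difference at a lower level. *Rpl22* measured 107, 98.2 and 253 CPM in control libraries 1 to 3, against 115, 109 and 264 CPM in activated libraries 1 to 3, a log2 difference of 1.26 ± 0.063 (SE, adjusted p = 2.14e-08). *Rpl24*, which bridges the subunits, had 1.22 ± 0.063 (SE, adjusted p = 2.77e-08). All 8 genes for the exit tunnel and its opening were called higher, with a median of 0.90, and 5 were with a correction for length. Of all 84 members 67 were called higher, or 39 with that correction, against 15.7% and 14.7% of tested genes. They included *Rpl4*, which lines the narrowest stretch of the tunnel, and *Rpl23a*, where the signal recognition particle docks. *Rpl4* measured 652, 695 and 1253 CPM in control libraries 1 to 3, against 702, 705 and 1186 CPM in activated libraries 1 to 3, a log2 difference of 0.82 ± 0.066 (SE, adjusted p = 6.06e-07). *Rpl23a* measured 438, 406 and 885 CPM in control libraries 1 to 3, against 497, 477 and 981 CPM in activated libraries 1 to 3, a log2 difference of 1.03 ± 0.062 (SE, adjusted p = 6.76e-08).

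The P-stalk calls elongation factors to the 60S subunit. Of its 4 genes, 2 were called higher, and the median was 0.55. *Rplp0* measured 941, 882 and 1210.2 CPM in control libraries 1 to 3, against 969, 998 and 1245 CPM in activated libraries 1 to 3. Both replicates 3 were the highest libraries, and the log2 difference of 0.37 ± 0.066 (SE, adjusted p = 3.62e-04) was under the fold threshold. *Rpl12*, likewise under it, had 0.48 ± 0.071 (SE, adjusted p = 8.08e-05). *Rplp1* measured 199.9, 173 and 317 CPM in control libraries 1 to 3, against 209.9, 218 and 306 CPM in activated libraries 1 to 3, a log2 difference of 0.64 ± 0.081 (SE, adjusted p = 2.27e-05). *Rplp2* measured 133, 124 and 201 CPM in control libraries 1 to 3, against 140.5, 148 and 219 CPM in activated libraries 1 to 3, with 0.62 ± 0.066 (SE, adjusted p = 5.83e-06). Both replicates 3 were the highest libraries for each of these genes. When single libraries were left out, the call of *Rplp1* was lost without control replicate 2 (0.54) or 3 (0.49). That of *Rplp2* was lost without control replicate 2 (0.56) or 3 (0.57) and without activated replicate 1 (0.58). With a correction for length 39 of 84 members were called higher, and whether *Rplp1* and *Rplp2* were among them is not given here.

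Of the 31 standard 40S genes, 23 were called higher in replicate 3, with a median of 0.84. *Rps14*, next to the mRNA exit channel, had the highest value among them. *Rps14* measured 305, 291 and 726 CPM in control libraries 1 to 3, against 325, 314 and 706 CPM in activated libraries 1 to 3, a log2 difference of 1.21 ± 0.065 (SE, adjusted p = 3.51e-08). Of the 5 genes for mRNA entry and exit, 3 were called higher. *Rps26* measured 284, 208 and 494 CPM in control libraries 1 to 3, against 289.7, 294 and 391 CPM in activated libraries 1 to 3, so both replicates 3 were the highest libraries, by more in control. The log2 difference was 0.72 ± 0.18 (SE, adjusted p = 0.0185), and the call was lost without control replicate 1 (adjusted p = 0.0957), 2 (a log2 difference of 0.54) or 3 (0.39), without activated replicate 1 (adjusted p = 0.0662), without the filter (adjusted p = 0.091) and with a correction for length (0.40). Whether that step differs between the lines cannot be told from 1 replicate 3 each. *Rps3*, at the entry channel, had 1.02 ± 0.063 (SE, adjusted p = 8.36e-08) and *Rps28* 0.57 ± 0.092 (SE, adjusted p = 1.70e-04). Of a list of 10 genes mutated in Diamond-Blackfan anaemia, a failure of red cell production, 10 were called higher, with a median of 0.97. In the same contrast 79.8% of members and 15.7% of tested genes were called higher. *Rps26* is on the anaemia list, so 9 were called wherever its call was lost by an omission. With a correction for length 8 were called, against 39 of 84 members. *Rps19* measured 90.0, 81.1 and 168 CPM in control libraries 1 to 3, against 96.5, 89.3 and 159 CPM in activated libraries 1 to 3, a log2 difference of 0.87 ± 0.071 (SE, adjusted p = 6.15e-07). *Rps19* is the gene most often mutated in the disease, and both of its replicates 3 lay above the 4 other libraries. *Rps24* measured 445, 437 and 904 CPM in control libraries 1 to 3, against 447, 418 and 963 CPM in activated libraries 1 to 3, a log2 difference of 1.09 ± 0.061 (SE, adjusted p = 4.78e-08). *Rpl35a*, *Rps23* and *Rpl26*, with low p, had 1.18 ± 0.063 (SE, adjusted p = 3.23e-08), 1.07 ± 0.060 (SE, adjusted p = 4.91e-08) and 1.05 ± 0.062 (SE, adjusted p = 6.23e-08). *Rpl4*, *Rps26*, *Rps3*, *Rps19*, *Rps21* and *Pdx1* were named after their values were seen.

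Of the 77, 14 standard members were not called higher. The 5 with the lowest differences were *Rpl10*, *Rps6*, *Rps2*, *Rpl41* and *Rplp0*. *Rpl10* measured 1640.3, 1453 and 1792 CPM in control libraries 1 to 3, against 1749, 1759 and 1732 CPM in activated libraries 1 to 3. Activated replicate 3 lay below its 2 fellow libraries, and the log2 difference was 0.092 ± 0.078 (SE, adjusted p = 0.313), or -0.047 without control replicate 3. *Rps2* measured 668, 629 and 806 CPM in control libraries 1 to 3, against 697, 709.9 and 729 CPM in activated libraries 1 to 3, where *Rps2* lines the mRNA entry channel, and the log2 difference was 0.18 ± 0.077 (SE, adjusted p = 0.0595). *Rps6*, with its fractional counts, had 0.14 ± 0.086 (SE, adjusted p = 0.173), and *Rpl41* had 0.33 ± 0.087 (SE, adjusted p = 0.00581).

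Of the 4 tested paralogs, 1 was called higher in replicate 3, and the median was -0.091. *Rpl36al* measured 115, 99.0 and 99.6 CPM in control libraries 1 to 3, against 118, 114 and 111 CPM in activated libraries 1 to 3, with a log2 difference of -0.090 ± 0.067 (SE, adjusted p = 0.258). The gene of the protein it resembles was higher. *Rpl36a* measured 113, 111 and 237 CPM in control libraries 1 to 3, against 124, 111 and 255 CPM in activated libraries 1 to 3, with 1.09 ± 0.062 (SE, adjusted p = 4.91e-08). In FPKM, *Rpl36al* stood at 0.938, 0.819 and 0.387 times *Rpl36a* in control replicates 1, 2 and 3 and 0.877, 0.947 and 0.403 times in the activated ones.

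*Rps27l*, a p53 target that can replace *Rps27*, was likewise not higher in replicate 3. *Rps27l* measured 30.5, 24.9 and 25.6 CPM in control libraries 1 to 3, against 32.4, 31.4 and 30.7 CPM in activated libraries 1 to 3, with -0.091 ± 0.087 (SE, adjusted p = 0.374). In CPM all 3 *Thada*-activated libraries were above all control libraries, the nearest being control replicate 1 and *Thada*-activated replicate 3. In FPKM the conditions overlapped, with 78.8 in *Thada*-activated replicate 3 against 84.1 in control replicate 1. The blocked log2 fold change between conditions was 0.20 ± 0.082 (SE, unadjusted p = 0.0292, adjusted p = 0.417). The FPKM of *Rps27l* was 0.0940, 0.0763 and 0.0418 times that of *Rps27* in control replicates 1, 2 and 3 and 0.0925, 0.0956 and 0.0462 times in the activated ones. *Rpl7l1*, which acts in the nucleolus, had a log2 difference of -0.40 ± 0.067 (SE, adjusted p = 2.06e-04), the 1 member lower at an adjusted p under 0.05. With a correction for length 3 members were lower at this level, against 3948 of 12516 tested genes. *Rpl7l1* measured 86.7, 83.7 and 64.8 CPM in control libraries 1 to 3, against 88.1, 81.9 and 64.6 CPM in activated libraries 1 to 3.

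*Rpl22l1* was the paralog called higher. *Rpl22l1* measured 15.1, 13.3 and 23.5 CPM in control libraries 1 to 3, against 14.6, 14.0 and 21.0 CPM in activated libraries 1 to 3, with a log2 difference of 0.64 ± 0.10 (SE, adjusted p = 1.07e-04). When single libraries were left out, its call was lost without control replicate 2 (0.57) or 3 (0.53). Its value with a correction for length is not given here. In FPKM it stood at 0.854, 0.824 and 0.563 times *Rpl22* in control replicates 1, 2 and 3 and 0.753, 0.764 and 0.450 times in the activated ones. *Rpl3l*, the muscle form of *Rpl3*, was at or under 0.07 FPKM in every library, and *Rpl39l*, the testis form of *Rpl39*, was between 0.180 and 0.630 FPKM. The 3 further copies had fractional counts in every library. *Rpl37rt* measured 25.3, 17.5 and 55.5 CPM in control libraries 1 to 3, against 28.3, 34.2 and 77.0 CPM in activated libraries 1 to 3, with a log2 difference of 1.33 ± 0.12 (SE, adjusted p = 1.68e-06). *Rpl31-ps12* and *Rpl34-ps1* had 1.33 ± 0.17 (SE, adjusted p = 2.54e-05) and 0.86 ± 0.19 (SE, adjusted p = 0.00153). When single libraries were left out, the call of *Rpl37rt* was lost without control replicate 3 (1.27) or activated replicate 3 (1.39), and that of *Rpl34-ps1* without control replicate 3 (0.57). How far these copies received reads of *Rpl37*, *Rpl31* and *Rpl34* was not tested.

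Other features of the libraries moved with replicate 3. Outside insulin and ribosomal protein genes, the count-weighted transcript length was 3374, 3403 and 3187 nt in control replicates 1, 2 and 3 and 3347, 3375 and 3210.1 nt in the activated ones, so both replicates 3 were weighted to shorter transcripts. The tested members had a median effective length of 540.2 nt, against 2745 nt for all tested genes. Among genes of 500 to 1000 nt that are not members the median replicate 3 difference was 0.18 (843 genes), and for the 33 members of that length it was 0.88. Under 500 nt the medians were 0.13 for 198 other genes and 0.82 for 38 members. With a correction for length, 39 members rather than 67 were called higher, against 14.7% of tested genes, and the median was 0.56. Over the 3 numbers 45 members rather than 70 were then called, against 30.1% of tested genes. The length trend was fitted with the members included, so the correction can take out part of their own difference. How much of the drop belongs to length was not tested.

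**Figure D3:**
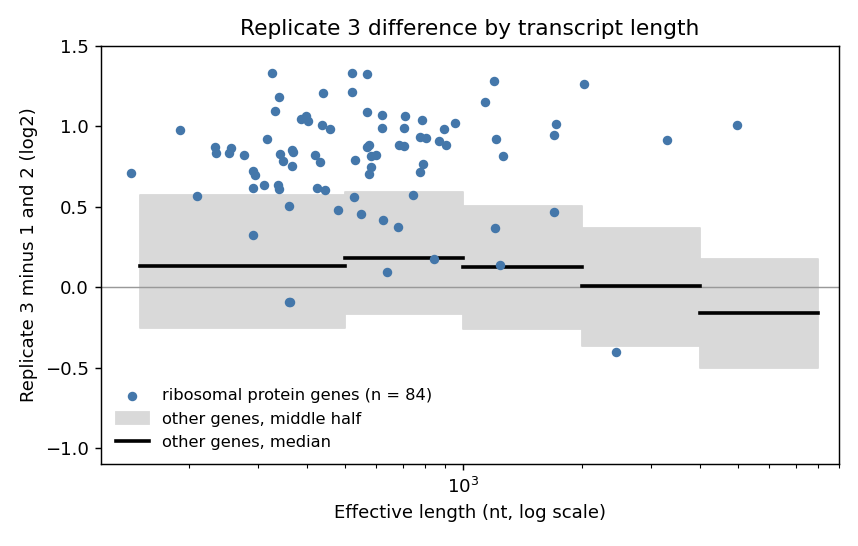
Log2 difference of replicate 3 against replicates 1 and 2 by effective transcript length (log scale) for the 84 tested genes (points), with the median (line) and interquartile range (grey) of all other tested genes in 5 length classes. Most members lie above the interquartile range of other genes of their length, and other genes over 4000 nt have a median of -0.16.

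β-cell genes moved with replicate 3 too, in both directions. *Ins1* had a log2 difference of 0.82 ± 0.070 (SE, adjusted p = 8.96e-07) and *Ins2* one of 0.57 ± 0.094 (SE, adjusted p = 1.79e-04). *Pdx1* measured 229.8, 205 and 104 CPM in control libraries 1 to 3, against 229, 222 and 115 CPM in activated libraries 1 to 3, a log2 difference of -1.03 ± 0.068 (SE, adjusted p = 1.36e-07), so this β-cell transcription factor was lowest in both replicates 3. Of the 11 tested β-cell markers, 2 were higher and 8 lower at an adjusted p under 0.05. The summed β-cell markers were 117255, 106931 and 137684 CPM in control replicates 1, 2 and 3 and 113883, 111901 and 125420 CPM in the activated ones. *Ins1* and *Ins2* made up the larger part of each sum, with 66329, 58739 and 106118 CPM in control and 67346, 65635 and 88356 CPM in the activated libraries. The sum thus mostly follows insulin, and its rise in replicate 3 does not hold for most of the markers. The part of transcript length and of these genes in the result for ribosomal protein genes was not tested beyond the values given.

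Other genes of protein synthesis were compared in the same contrast, in which 15.7% of all tested genes were called higher and 15.3% lower. The 3 ribosomal proteins with other symbols had a median of 0.70, and 2 were called higher. *Fau* measured 181, 166 and 312 CPM in control libraries 1 to 3, against 216, 202 and 310.4 CPM in activated libraries 1 to 3, with 0.70 ± 0.075 (SE, adjusted p = 5.68e-06). Of 18 translation factors and related proteins with TOP mRNAs, 13 were called higher and 0 lower, with a median of 0.74. *Eif3k* had 0.60 ± 0.074 (SE, adjusted p = 1.80e-05) and *Btf3*, a subunit of the nascent chain complex, had 0.77 ± 0.070 (SE, adjusted p = 1.52e-06). Of 28 other initiation factors, 3 were called higher and 4 lower, with a median of -0.14. *Eif3a* and *Eif3c*, subunits of eIF3, had -0.14 ± 0.076 (SE, adjusted p = 0.133) and 0.058 ± 0.073 (SE, adjusted p = 0.496).

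Of 92 ribosome biogenesis factors, 7 were called higher and 24 lower, with a median of -0.12. *Mphosph10*, of the small-subunit processome, had -0.12 ± 0.084 (SE, adjusted p = 0.24). *Polr2f*, a subunit shared by the RNA polymerases, had -0.14 ± 0.083 (SE, adjusted p = 0.161). Of 28 genes for MYC and mTORC1 control, 4 were called higher and 7 lower, with a median of -0.20. *Myc* measured 5.56, 4.31 and 12.4 CPM in control libraries 1 to 3, against 5.19, 6.10 and 12.1 CPM in activated libraries 1 to 3. *Myc*, known to drive ribosomal protein genes, was called higher, with 1.203 ± 0.15 (SE, adjusted p = 1.53e-05), as was its relative *Mycn*, with 0.70 ± 0.14 (SE, adjusted p = 6.81e-04), and both were named after their values were seen. *Mtor* measured 47.6, 48.9 and 27.4 CPM in control libraries 1 to 3, against 51.8, 55.9 and 36.1 CPM in activated libraries 1 to 3, with -0.70 ± 0.081 (SE, adjusted p = 1.03e-05), and *Mnt*, a MYC antagonist, had 0.27 ± 0.076 (SE, adjusted p = 0.00799) and was not called. Of 15 tested genes of the p53 response to the free 5S RNP, 3 were called higher and 1 lower, with a median of -0.24. At an adjusted p under 0.05 at any fold, 4 were higher and 6 lower, against 4099 and 4119 of 12516 tested genes. The 1 called lower, named after its values were seen, was *Btg2*, with -0.90 ± 0.089 (SE, adjusted p = 2.99e-06). *Bax*, with -0.39 ± 0.071 (SE, adjusted p = 4.04e-04), and *Perp*, with 0.43 ± 0.24 (SE, adjusted p = 0.137), were not called. Of 78 mitochondrial ribosomal proteins, 11 were called higher and 3 lower, with a median of 0.20, so the share called higher was not above that of all tested genes. Without the fold threshold, 38 of 78 were higher and 6 lower at an adjusted p under 0.05, against 4099 and 4119 of 12516 tested genes. *Mrpl52* had 0.41 ± 0.10 (SE, adjusted p = 0.00269) and *Mrps21* -0.077 ± 0.078 (SE, adjusted p = 0.403), and neither was called. In the blocked comparison of conditions 0 genes of these 7 lists had an adjusted p under 0.05 by edgeR. At an unadjusted p under 0.05, which 6.06% of tested genes passed higher and 4.34% lower, there were 0 otherwise named ribosomal proteins and 0 TOP genes, 6 lower initiation factors, 2 higher and 2 lower biogenesis factors, 3 higher and 3 lower MYC and mTORC1 genes, 1 higher p53 gene and 4 higher mitochondrial ones.

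The difference between conditions was also compared between replicate 3 and replicates 1 and 2. Each condition has 1 replicate 3, whose spread is assumed to be that of replicates 1 and 2, so the p cannot show that the effect of the condition differs, and the counts are a description. At an adjusted p under 0.05 by edgeR, 10 of 84 members had a lower condition difference in replicate 3 (11.9%, against 3.26% of tested genes) and 0 had a higher one (against 3.7%). Among them were *Rpl10*, *Rpl13a*, *Rpl18*, *Rpl28*, *Rpl31*, *Rpl31-ps12*, *Rps2*, *Rps7* and *Rps20*. *Rpl18* measured 295, 289 and 561 CPM in control libraries 1 to 3, against 356, 343 and 548 CPM in activated libraries 1 to 3. The activated library was higher in replicates 1 and 2 and lower in replicate 3, a change of -0.34 ± 0.085 (SE, adjusted p = 0.00715). Scaled by library totals alone, 5 of 84 members were past the threshold, all of them lower, against 2% of tested genes.

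Since most members moved together, their promoters were searched. Windows from 250 bases before to 50 after a transcript start (RefSeq, GRCm38.p6) were matched for 65 of 86 members. Among those missing were *Rpl17*, *Rpl21*, *Rpl23a*, *Rpl29*, *Rpl3*, *Rpl30*, *Rpl32*, *Rpl34-ps1*, *Rpl36*, *Rpl7*, *Rpl8*, *Rplp1*, *Rps14*, *Rps20*, *Rps27a* and *Rps29*. A run of at least 5 C or T letters that covers the first base of the transcript, as in a TOP mRNA, was found for 20 of 57 standard genes (35.1%) and 0 of 8 others, against 11.3% of the 10020 tested genes with a window and 11.8% of all 27025 genes. CTTTCC was on either strand in 50.9% of the standard genes (tested genes 30.2%, all genes 29.3%), and CCGGAA in 56.1% (tested genes 31.3%, all genes 16.7%). The shares on either strand were 7.02% for ATGGCGGC (tested genes 5.71%, all genes 2.60%), 61.4% for GGGCGG (tested genes 69.9%, all genes 38.2%) and 10.5% for TATAAA (tested genes 8.31%, all genes 15.7%). The 8 others held CTTTCC in 5 windows and CCGGAA in 3, ATGGCGGC in 0, GGGCGG in 4 and TATAAA in 2, which is too few to compare. CTTTCC can lie within the run of C and T. The run was counted only where it covered the annotated first base, and whether the annotated starts are exact was not tested. A gene without a counted run may therefore still have a TOP mRNA. A match is a description of these letters only.

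The printed windows run from 30 bases before to 20 bases from the start, 5′ to 3′ on the strand of the gene, with the C and T run over the first base in capitals. They set 3 standard genes that were higher in replicate 3, and *Rpl36a*, beside 4 paralogs and *Rps6*, and were chosen after their values were seen. *Rpl28*, *Rpl35* and *Rps27* have the run, and so does *Rps6*, which was not called higher. Over the annotated first base, *Rpl36a* and *Rpl22l1*, both also called higher, and *Rps27l* and *Rpl36al*, which were not, have none. There *Rpl7l1* has a single letter. In *Rpl22l1* and *Rps27l* the annotated first base is a g that a stretch of C and T follows directly, which the rule does not count. In *Rpl36a* the letters tataaa lie after the annotated first base. The coordinates are chr7:4792935-4792984 (plus strand) for *Rpl28*, chr2:39005112-39005161 (minus strand) for *Rpl35*, chr3:90213629-90213678 (minus strand) for *Rps27*, chr9:66946056-66946105 (plus strand) for *Rps27l*, chrX:134585624-134585673 (plus strand) for *Rpl36a*, chr12:69184048-69184097 (minus strand) for *Rpl36al*, chr3:28805478-28805527 (plus strand) for *Rpl22l1*, chr17:46782637-46782686 (minus strand) for *Rpl7l1*, chr4:86857348-86857397 (minus strand) for *Rps6*. For *Rps27l* the first of 2 windows is shown.
Rpl28: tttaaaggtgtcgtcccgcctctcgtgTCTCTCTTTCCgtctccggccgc
Rpl35: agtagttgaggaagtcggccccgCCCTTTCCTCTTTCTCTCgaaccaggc
Rps27: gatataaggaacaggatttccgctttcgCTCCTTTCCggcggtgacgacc
Rps27l: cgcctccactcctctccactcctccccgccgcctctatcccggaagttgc
Rpl36a: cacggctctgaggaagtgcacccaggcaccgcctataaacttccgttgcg
Rpl36al: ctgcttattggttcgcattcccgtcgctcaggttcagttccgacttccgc
Rpl22l1: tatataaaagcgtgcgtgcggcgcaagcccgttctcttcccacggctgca
Rpl7l1: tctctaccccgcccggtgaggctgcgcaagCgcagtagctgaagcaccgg
Rps6: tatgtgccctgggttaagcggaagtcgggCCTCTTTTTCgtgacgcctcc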

How the data were processed

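RNA from 3 control and 3 *Thada*-activated libraries of MIN6 cells was sequenced on a BGISEQ-500. The authors' files hold estimated counts per gene, deposited without normalization; the submitters name Bowtie2, RSEM, DESeq2 and GRCm38, with no versions. The authors also deposited FPKM, computed per kilobase of gene model and per library size. The authors' comparison columns exist and were not used. Members and lists were chosen with earlier results of these data known. Named were the paralogs, P-stalk and 5S RNP genes, further copies, the members with the highest and lowest FPKM or differences, those called with the lowest p, and the 2 genes of each further list with the lowest blocked p. The values of some genes these rules would name are not reported here. Rounded counts were fitted over all genes that passed edgeR's count filter, with TMM scaling and robust quasi-likelihood tests (R 4.3.3, edgeR 4.0.16). All p-values beside log2 values are from edgeR, and adjusted p-values are Benjamini-Hochberg over all tested genes. The alternatives used DESeq2 1.42.0 and limma 3.58.1 on log2 FPKM plus 1 or 0.1, other scalings and filters, each library left out, a length correction and the replicate number as a block. The length correction removed the trend of each library with transcript length, which was fitted with the members included. As a pairing check, deviations from the condition mean correlated between lines at 0.667, 0.671 and 0.869 for replicate numbers 1, 2 and 3, but at 0.705 and 0.726 when 1 and 2 were crossed, so 1 and 2 are not told apart by it. Shares were compared by exact permutation with SciPy 1.17.1. Figures were drawn with Matplotlib 3.10.9, tables with pandas 2.3.3 under Python 3.11.15.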

Additional observations from a re-analysis of the deposited data

Results flagged for a closer look

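For 10 ribosomal protein genes, 9 of them given here, the log2 fold change between conditions was lower in replicate 3 than in replicates 1 and 2, with an adjusted p under 0.05 (edgeR, Benjamini-Hochberg over 12516 genes). Each condition has 1 replicate 3, whose spread is assumed to be that of replicates 1 and 2, so this p cannot show that the effect of the condition differs. The difference, replicate 3 minus replicates 1 and 2, was *Rpl18* -0.3368, *Rps2* -0.3028, *Rpl28* -0.3213, *Rpl31-ps12* -0.8004, *Rpl31* -0.2847. It was *Rps20* -0.2942, *Rps7* -0.2629, *Rpl10* -0.2713 and *Rpl13a* -0.2612. All 10 were negative, against 3.26% of all tested genes with a negative and 3.7% with a positive difference past the threshold. Scaled by library totals alone, 5 members passed, all negative, against 2% of tested genes with a negative difference. *Rpl31-ps12* had fractional counts in every library. The contrast of replicate 3 was chosen because these libraries stood apart, so the values are a description, and the cause was not tested.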

How the results depend on the processing

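Between conditions, 0 members were called past 1.5-fold by edgeR, DESeq2 or limma under the scalings, filters and omissions of single libraries tried, or in replicates 1 and 2 alone, where 10 passed at any fold, and 0 had an unadjusted p under 0.05 in edgeR with all libraries and no block. With the block 0 were called and 14 had an unadjusted p under 0.05, or 7 with a length correction too, and 1 was called with pair 1 left out. At any fold 4, 0 and 12 passed with pairs 1, 2 and 3 left out. Replicates 1 and 2 alone, and each pair left out, were chosen after seeing the data. The members' median of 0.0506 between conditions ran from -0.2375 to 0.428 when single libraries were left out, and was -0.0147 with the block and a length correction; the cause was not tested. The difference in the share of counts ran from -0.4114 to 0.746 percentage points when single libraries were left out, and was positive under the other alternatives.
With a length correction 45 members rather than 70 were called over the replicate numbers. In replicate 3, 39 rather than 67 members were called higher, and the members' median was 0.5595. The members were included in the length trend, and the cause was not tested. Under the other scalings, filters, tests and omissions 62 to 72 were called over numbers and 58 to 68 for replicate 3, and without the fold threshold 74 to 79 passed over numbers and 73 to 79 were higher for replicate 3. With library totals alone, 5 rather than 10 members had an adjusted p under 0.05 for a lower condition difference in replicate 3.
Some named genes changed sign. *Rpl23*, *Rpl17* and *Rps3a1* were at 0.0011, 0.0392 and 0.039 in replicates 1 and 2 alone and at 0.0063, 0.0382 and 0.0388 with the block and pair 3 left out. Leaving out single libraries gave -0.4254 to 0.2905 for *Rpl23*, -0.245 to 0.1112 for *Rpl12*, -0.4645 to 0.4385 for *Rpl17*, -0.265 to 0.1699 for *Rps4x*, -0.4483 to 0.424 for *Rps3a1*, -0.1063 to 0.5526 for *Rpl39* and -0.0576 to 0.6351 for *Rps29*. For replicate 3 against 1 and 2, *Rpl10* ran from -0.0468 to 0.228 and was -0.1389 with a length correction, where *Rps2* was -0.0194.
Of the other values of named genes, 191 between conditions and 296 for replicate 3 kept direction and side of the threshold, and 16 for replicate 3 kept direction but no longer passed it. At depths of 17166511 to 17727004 counts a library, *Rpl3l* and *Rpl39l* had too few counts to be tested.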
